A study of Homo sapiens with 3 samples.

Results

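Solute carriers (SLC) are proteins of the plasma membrane and of organelle membranes that move amino acids, sugars, metal ions, vitamins and other small molecules across a lipid bilayer. Genes were taken as members by symbol, which had to begin with SLC, a family number and a letter, leaving out the mitochondrial SLC25A carriers and SLC35A4. A member also had to be listed in all 3 deposited tables with at least 20 coding sequence (CDS) counts on average. The rule gave 124 members of 8812 transcripts listed in all 3 tables, and 69 of them averaged 128 CDS reads or more, a minimum taken from the study. Of 139 symbols that matched in any table, 14 were missing from at least 1 table and SLC30A10 fell short of the count minimum, with a mean of 11.3 counts against 21.0 for SLC35E2B, the member nearest above it. The 14 were 7 listed only in untreated libraries, 2 listed only with G418 and 5 listed with G418 and in 1 untreated library.

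Ribosome-protected fragments (RPFs), the stretches of mRNA that a ribosome shields from nuclease, were sequenced from HEK293T, an established human line derived from embryonic kidney. The control cells had no drug (2 libraries, named Untreated A and B), and the treated cells received G418 at 500 µg/mL for 24 hours (1 library, named G418 A). This aminoglycoside acts at the decoding site of the small ribosomal subunit and makes ribosomes misread codons and pass stop codons. The study calls its replicates biological, the labels do not say that they came from separate cultures, and the lone G418 library was assumed to vary as the untreated pair did. RPF density follows both the amount of an mRNA and its translation, which cannot be told apart here, nor can fewer expressing cells and less RNA per cell. The libraries held 5857230, 9477972 and 7216039 assigned reads, and the members took 0.855%, 0.838% and 0.966% of listed CDS reads (Untreated A, B, and G418 A, respectively).

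Solute carriers are made on ribosomes bound to the endoplasmic reticulum and cross the membrane many times. A cell adjusts many of them to nutrient supply: amino acid carriers such as SLC7A11 and SLC38A2 are known targets of the transcription factor ATF4, the zinc exporter SLC30A1 responds to zinc, and the glucose carrier SLC2A1 supplies glycolysis in most cultured cells. At the 3′ end of each mRNA the normal termination codon (NTC) ends the protein, and a ribosome that reads through it runs on in frame to a further stop codon (3′TC), adding a tail to the last cytosolic or luminal segment of the carrier.

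The stop signal, meaning the stop codon together with the nucleotide after it, differed among the carriers whose readthrough is described here. The stop contexts are shown for 10 of them because they include those with the most readthrough in G418 and abundant members with none. Of the 124 members, 120 matched a transcript of GENCODE v44 on the hg38 assembly with the same CDS length and stop signal, and the sequences come from that reference. Each is written 5′ to 3′ on the mRNA strand with the 4 bases of the stop signal in capitals.
SLC31A1: gagcattgccatTGACatcaaactcta
SLC7A1: gaccagtgcaagTGACgcacagccccg
SLC6A8: gagagtgtcatgTGACaactcagctca
SLC39A10: gacatccagtttTGACctttcccagta
SLC3A2: ccctacgcggccTGACttcagcctgac
SLC16A1: gaaagtccagtcTGAAtccatggggct
SLC38A2: ggaggtggccatTAATtggcaccactc
SLC2A1: gattcccaagtgTGAGtcgccccagat
SLC30A5: acttacatcatgTGAGataactcaaga
SLC6A15: gaatctgatttgTAGCtgggggaaaag
The 3 bases of the stop codon lie in hg38 at chr9:113260471-113260473 on the plus strand for SLC31A1, chr13:29514480-29514482 on the minus strand for SLC7A1, chrX:153695212-153695214 on the plus strand for SLC6A8, chr2:195735039-195735041 on the plus strand for SLC39A10 and chr11:62888691-62888693 on the plus strand for SLC3A2. They lie at chr1:112913891-112913893 on the minus strand for SLC16A1, chr12:46361111-46361113 on the minus strand for SLC38A2, chr1:42927041-42927043 on the minus strand for SLC2A1, chr5:69129615-69129617 on the plus strand for SLC30A5 and chr12:84861632-84861634 on the minus strand for SLC6A15. All 10 stop codons are in the last exon of their transcript, and the first 5 contexts share the signal UGAC.

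CDS reads of the creatine carrier rose with G418, and most other carriers moved by less than the spread allowed the test to call. SLC6A8 imports creatine, the substrate of creatine kinase, together with sodium and chloride. Its CDS density, in reads per kilobase and per unit of library size (RPKM), was 8.38 and 6.81 in the untreated libraries A and B and 22.7 with G418 (92, 121 and 307 reads). The G418 library lay well above both untreated libraries, which were close to each other. In edgeR's quasi-likelihood test over 8480 transcripts the log2 change was 1.49 ± 0.29 (SE; 2 untreated libraries against 1), with a Benjamini-Hochberg adjusted p of 0.000207. The untreated pair differed by a log2 of -0.36 (Untreated B over Untreated A). This difference had no weight of its own in the SE or the p, because edgeR took the spread from a fit across all transcripts. With DESeq2 the log2 change was 1.48 ± 0.42 (SE), but the adjusted p was 0.157 without independent filtering and was not given with it, so the call rests on the edgeR test. A further limit is that 40.9% of the 28-nt stretches of its CDS also occur in other genes, 36.5% in the pseudogene SLC6A10P alone, and a read that matched several places was credited to 1 of them.

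The only other member with an adjusted p under 0.05 was SLC35E2A, an SLC35 family member with no settled substrate, at 1.21 and 1.34 RPKM in untreated cells and 10.6 with G418 (5, 9 and 54 reads). Its log2 change was 2.93 ± 0.69 (SE), with an edgeR adjusted p of 0.00531, and DESeq2 without independent filtering gave an adjusted p of 0.531. Its near-identical copy SLC35E2B had 1.93, 2.09 and 8.22 RPKM and a log2 change of 1.92 ± 0.67 (SE, edgeR adjusted p = 0.123). The SLC35E2A transcript had no match in GENCODE v44 with the same CDS length and stop signal. For SLC35E2B, 92.2% of the 28-nt stretches of its CDS occur in another gene, so reads of this pair are uncertain as to their gene.

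Together, 2 of 124 members rose at an adjusted p under 0.05 and 0 fell, where 1.21% of all 8480 transcripts tested rose and 0.425% fell. At an unadjusted p under 0.05 in edgeR, 17 members were higher and 0 lower, beside 7.12% and 4.82% of all transcripts, and DESeq2 without independent filtering called 0 members in either direction. The members' median log2 change was 0.24 (quartiles -0.06 and 0.42), beside a median of 0.00 over all transcripts. Against each untreated library alone the members' median was 0.23, and the median difference between the untreated libraries was 0.01 for the members and 0.01 for all transcripts. G418 A lay above both untreated libraries for 71 of 124 members, or 57.3%, beside 36.7% of all transcripts, and below both for 26, or 21.0%, beside 34.9%. Among the 69 members with at least 128 reads the median was 0.24, beside -0.03 over all 5684 such transcripts. The 26 SLC25A carriers of the mitochondrial inner membrane, outside the rule, had a median log2 change of 0.21. A change of at least 1 on the log2 scale was seen in 5 members, chosen for mention after their values were seen: SLC35E2A, SLC35E2B, SLC6A8, the amino acid carrier SLC43A1 (log2 change 1.54, adjusted p = 0.233, edgeR) and the glycine carrier SLC6A9 (log2 change 1.01, adjusted p = 0.461, edgeR).

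**Figure D1:**
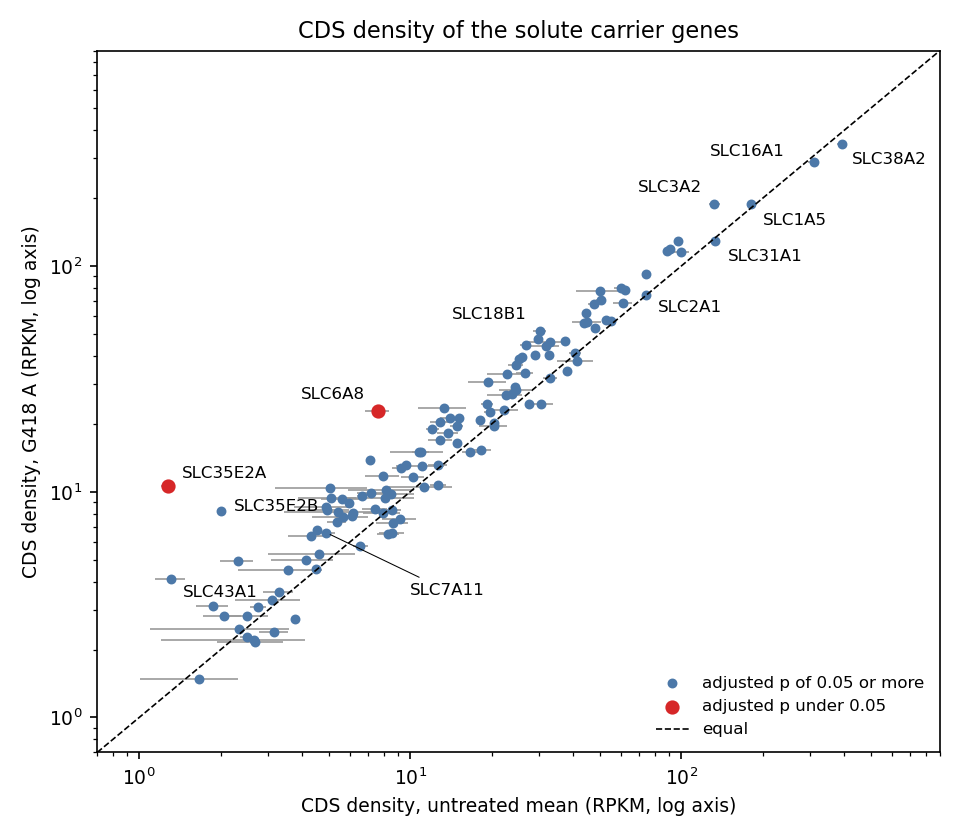
CDS density in G418 A against the untreated mean for the 124 solute carriers, in RPKM on log axes, with 1 point per gene and a horizontal bar from the lower to the higher untreated library. SLC6A8 and SLC35E2A, in red, passed an adjusted p of 0.05 in edgeR and stand above the dashed line of equality, while SLC2A1, SLC31A1 and SLC38A2 lie on or just under it.

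The named amino acid carriers, none of which passed the test, lay between a small decrease and a small increase. SLC3A2, the glycoprotein heavy chain that brings SLC7 light chains to the plasma membrane, had CDS densities of 139, 126 and 188 RPKM in the libraries Untreated A, Untreated B and then G418 A, the order in which values are given from here on. Its log2 change was 0.40 ± 0.19 (SE, edgeR adjusted p = 0.339). Its partner SLC7A5, the leucine and tryptophan exchanger, had 38.5, 27.03 and 46.01 RPKM, and the log2 change of 0.40 was smaller than the difference of -0.57 between the untreated libraries. For SLC7A5, 19.9% of 28-nt stretches recur in other genes. Both chains of this heterodimer were thus highest in G418 A.

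SLC38A2, the sodium-coupled neutral amino acid carrier, was the most abundant member at 408, 375 and 349 RPKM, with a log2 change of -0.26 ± 0.18 (SE, edgeR adjusted p = 0.610). The glutamine exchanger SLC1A5 had 177, 183 and 188 RPKM, and its log2 change was -0.04 ± 0.19 (SE), turning to 0.06 when libraries were scaled by their totals instead of TMM. The related serine and alanine exchanger SLC1A4 had 24.6, 28.4 and 33.7 RPKM with a log2 change of 0.25. The estimates for these carriers had different signs.

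The arginine carrier SLC7A1 had 65.9, 56.0 and 68.6 RPKM (log2 change 0.07), a smaller difference than the -0.30 between the untreated libraries. The cystine and glutamate exchanger SLC7A11 had 4.52, 5.30 and 6.59 RPKM from 39, 74 and 70 reads (log2 change 0.32 ± 0.47, SE), and its error exceeded its change. Over the 20 amino acid carriers the median log2 change was 0.13, and 0 passed the adjusted test in either direction in edgeR. Of these carriers 9 lay above both untreated libraries, 4 below both and 7 between, beside 36.7% above both and 34.9% below both over all transcripts.

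The glucose carriers SLC2A1 and SLC2A3 lay within or slightly below the untreated range, and SLC2A8 lay above it. SLC2A1, the basal glucose uniporter, had 76.0, 71.9 and 74.4 RPKM, and a log2 change of -0.09 ± 0.20 (SE) that became 0.01 with library totals. SLC2A3, a high-affinity glucose uniporter, had 37.4, 38.4 and 34.2 RPKM (log2 change -0.24). Of its CDS stretches of 28 nt, 54.2% recur elsewhere, mostly in SLC2A14, so its level is uncertain. SLC2A8, a hexose carrier of intracellular membranes, was the highest of the family relative to control at 11.8, 13.9 and 20.5 RPKM (log2 change 0.57 ± 0.30, SE, edgeR adjusted p = 0.448), and its relative SLC2A12 was among the lowest (11.8, 13.6 and 10.7 RPKM, log2 change -0.34). The 13 sugar carriers had a median log2 change of -0.04, with 3 above both untreated libraries and 6 below both, beside 36.7% and 34.9% of all transcripts.

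Of the 17 metal carriers, 13 lay above both untreated libraries and 3 below both, beside 36.7% and 34.9% of all transcripts. Their median log2 change was 0.30. In edgeR 0 passed the adjusted test, and 3 were higher at an unadjusted p under 0.05, beside 7.12% of all transcripts. SLC30A5, a zinc importer of the secretory pathway, had 26.99, 24.6 and 39.5 RPKM (log2 change 0.52 ± 0.22, SE, edgeR adjusted p = 0.271). The plasma membrane zinc exporter SLC30A1 had 44.8, 42.9 and 55.8 RPKM (log2 change 0.25), and the zinc and iron importer SLC39A14 had 44.2, 44.7 and 62.0 RPKM (log2 change 0.38). In all 3 the G418 library was the highest and the untreated libraries were close together.

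The zinc importer SLC39A1 had 40.8, 59.25 and 77.2 RPKM, a log2 change of 0.52 beside a difference of 0.48 between the untreated libraries. For the magnesium carrier SLC41A1 the untreated libraries differed by a log2 of 1.05, more than its change of 0.91 with G418, with densities of 3.17, 6.92 and 10.4 RPKM. Its change was 1.57 against Untreated A and 0.52 against Untreated B. The zinc importer SLC39A10 (38.7, 42.7 and 41.2 RPKM, log2 change -0.08, or 0.02 with library totals) and the high-affinity copper importer SLC31A1 (135, 132 and 130 RPKM, log2 change -0.13) had changes smaller than their standard errors. SLC11A2, which carries ferrous iron, was not analysed here.

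Outside these classes, the largest increases among members with at least 128 reads were in carriers of organelles and of vitamins, none of which passed the test. SLC18B1, a vesicular polyamine carrier, had 31.6, 28.4 and 51.4 RPKM, with a log2 change of 0.68 ± 0.24 (SE). Its edgeR adjusted p was 0.119, and 0.0413 with library totals. SLC19A1, the reduced folate carrier, had 25.5, 28.004 and 44.6 RPKM (log2 change 0.64, edgeR adjusted p = 0.150). SLC33A1, which brings acetyl-CoA into the endoplasmic reticulum, had 28.7, 30.4 and 47.4 RPKM (log2 change 0.58, edgeR adjusted p = 0.210). The lysosomal carrier SLC46A3 had a log2 change of 0.57 beside a difference of -0.52 between the untreated libraries, and SLC35F1 had a log2 change of 0.55.

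All 5 vitamin carriers lay above both untreated libraries, as did 17 of 19 members of the SLC35 family, beside 36.7% of all transcripts. The SLC35 family carries nucleotide sugars into the Golgi and also has members of unknown substrate. Its 19 members include SLC35E2A and SLC35E2B, whose reads are uncertain as to their gene. The median log2 changes were 0.50 for the vitamin carriers and 0.36 for the SLC35 family. The 7 monocarboxylate carriers had a median of -0.08, led in abundance by the lactate carrier SLC16A1 at 324, 294 and 289 RPKM. The largest decreases among members with at least 128 reads were in the anion exchanger SLC26A6 (log2 change -0.46), the scaffold protein SLC9A3R1 (-0.41), the arginine carrier SLC7A2 (-0.36), SLC2A12 and SLC38A2, none of which passed the test. SLC9A3R1 and 4 other members bear an SLC symbol without being carriers, and without these 5 the median of the remaining 119 was 0.24.

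**Figure D2:**
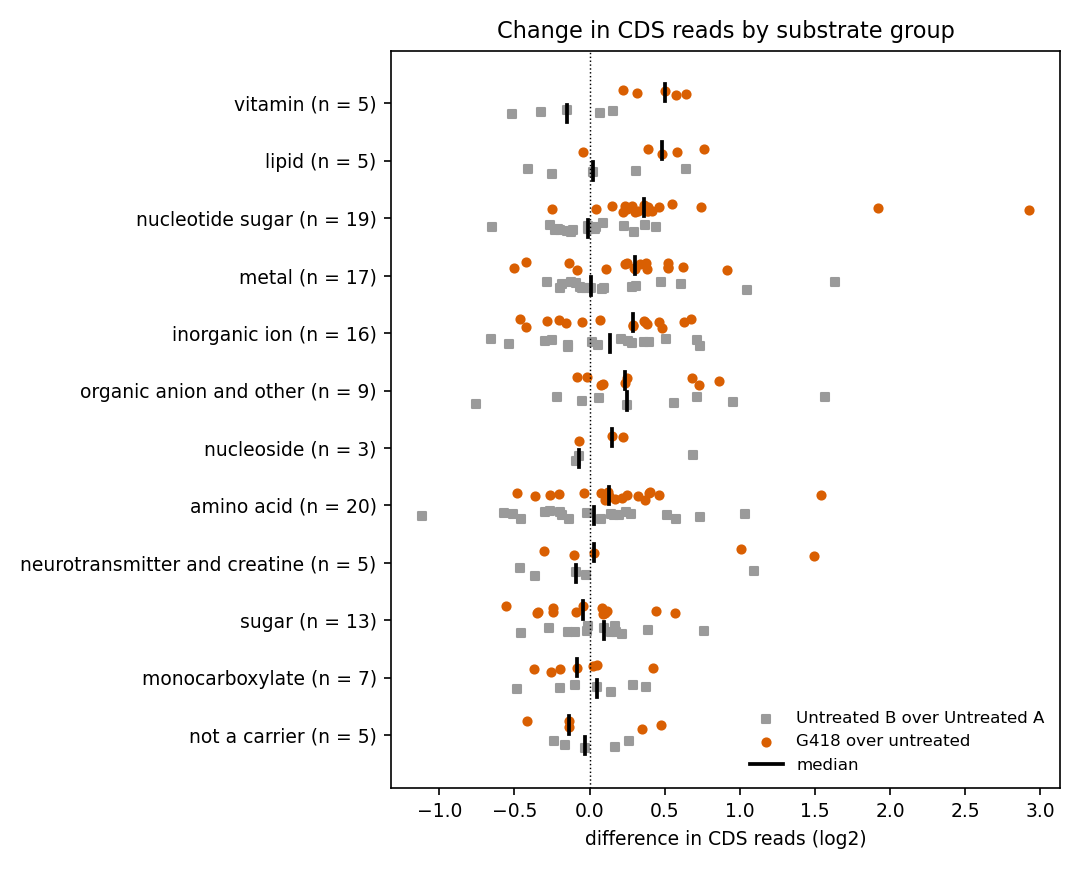
Change in CDS reads on the log2 scale for each member by substrate group, for G418 over untreated (orange circles) and Untreated B over Untreated A (grey squares), with black bars at the medians. The G418 medians run from -0.14 for the 5 members that are not carriers to 0.50 for the vitamin carriers, and the grey points show the size of differences between untreated libraries.

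Genes that work with these carriers also had 0 calls at an adjusted p under 0.05 in edgeR. Of 6 measured genes listed for creatine synthesis and creatine kinases, 0 passed in either direction and the median log2 change was -0.19. The list includes AHCY, which is neither a creatine synthesis enzyme nor a creatine kinase. The rate-limiting enzyme of creatine synthesis, GATM, had 3.03, 4.51 and 4.25 RPKM (log2 change 0.06), and the creatine kinase CKB had 429, 552 and 471 RPKM (log2 change -0.15). Of 22 genes listed for the amino acid response, ATF4 itself and its targets, 0 passed, with a median log2 change of 0.15. The transcription factor DDIT3 had 5.01, 5.53 and 18.9 RPKM (log2 change 1.73, edgeR adjusted p = 0.094), whereas asparagine synthetase ASNS had 90.2, 79.8 and 90.4 RPKM (log2 change -0.01).

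Of 14 genes of metal handling 0 passed, with a median of -0.24. The metal-binding metallothioneins MT1X (146, 216 and 96.0 RPKM, log2 change -1.02, edgeR adjusted p = 0.0624) and MT1F (17.9, 24.1 and 9.06 RPKM, log2 change -1.31) were lowest in G418 A. The other measured metallothioneins, MT1G (26.8, 58.6 and 29.9 RPKM, log2 change -0.63) and MT2A (154, 262 and 156 RPKM, log2 change -0.52), lay between the untreated libraries in RPKM. Of 7 genes of glucose uptake and hexose phosphorylation 0 passed (median log2 change -0.20), as did 0 of 5 accessory chains and ubiquitin ligases of carriers (median -0.14). The counts at an unadjusted p under 0.05 in edgeR were 1, 4, 1, 2 and 1 for these lists, in the order given. Beside them, 7.12% of all transcripts were higher and 4.82% lower. Of the genes so counted, DDIT3 and STC2 were higher, both in the ATF4 list. AHCY, PHGDH, SHMT2, MT1X, GPI, PFKL and the ubiquitin ligase RNF5 (log2 change -0.90) were lower.

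Readthrough was scored as the ribosome readthrough score (RRTS), the RPF density between the NTC and the 3′TC over the density of the CDS. Reads in that region are called readthrough reads here, but their reading frame was not examined. The paper found the CDS frame lost among 3′UTR reads of untreated cells and kept with G418, so untreated values may include reads of other origin. Pooled over the 69 members with at least 128 CDS reads, readthrough regions held 27, 37 and 582 reads. These are a pooled RRTS of 1.804% (exact Poisson 95% interval 1.19 to 2.62), 1.52% (1.07 to 2.09) and 26.8% (24.7 to 29.1) of the CDS density. The G418 library thus lay far outside the untreated pair. No test between conditions was run on readthrough, since with 1 G418 library the smallest two-sided exact permutation p is 0.333, and all intervals on readthrough cover the counting error of the region's reads only. Over all 5684 transcripts the same values were 1.57%, 1.25% and 21.3%. RRTS in G418 A was above both untreated libraries in 48 of 69 members, or 69.6%, beside 71.9% of all transcripts, a share near the background. At least 1 readthrough read was present in 50 of the 69 members in G418 A, or 72.5%, beside 75.8% of all transcripts.

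The stop codons are given beside those of all transcripts, with no test of the difference. UAA ended 21.7% of the 69 members against 30.01% of all transcripts, UAG 27.5% against 21.1%, UGA 50.7% against 48.9% and the signal UGAC 11.6% against 9.87%. At the members' own mix of stop signals, all transcripts would give a pooled RRTS of 1.99%, 1.45% and 26.7%, beside the members' own 26.8% in G418 A.

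Carriers ending in UGA had a pooled RRTS of 30.4% in G418 A (95% interval 27.7 to 33.4), beside 29.9% for all UGA transcripts. Those ending in UAG had 16.95% (13.1 to 21.6), beside 19.2%. Carriers ending in UAA had 22.99% (18.3 to 28.6), beside 12.2%, and 40 of their 81 readthrough reads came from SLC38A2 alone. The 8 carriers with UGAC had 7.63%, 4.70% and 51.3% (44.3 to 59.1 in G418 A), beside 3.88%, 2.73% and 38.7% for all UGAC transcripts. UGAC was the highest stop signal class shown for carriers in each library, and all 8 of its members had readthrough reads in G418 A, as did 84.7% of all 561 UGAC transcripts. Of its 19 and 18 untreated readthrough reads, 15 in each library came from SLC31A1 and SLC7A1.

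**Figure D3:**
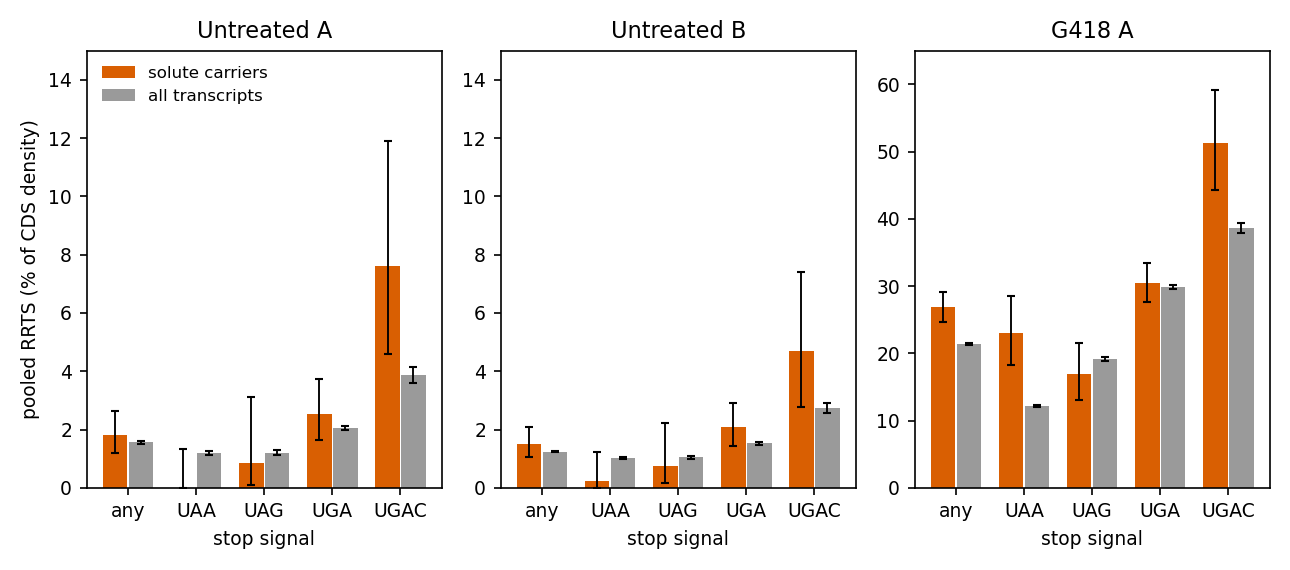
Pooled RRTS in percent of CDS density by stop signal for the solute carriers with at least 128 reads (orange) and all such transcripts (grey), 1 panel per library, with exact Poisson 95% intervals. The G418 panel has a longer axis, and within each panel the UGAC bar is the highest, at 51.3% for carriers in G418 A.

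Without the drug, the copper importer and the arginine carrier were the only members with at least 5 readthrough reads in each untreated library (2 of 69, or 2.90%, beside 2.46% of all transcripts). Whether these untreated reads lie in the CDS frame, as readthrough requires, was not tested. SLC31A1 had 7, 7 and 56 readthrough reads. Its RRTS was 0.174 (95% interval 0.070 to 0.358), 0.110 (0.044 to 0.227) and 1.17 (0.885 to 1.52), so that in G418 A ribosomes were about as dense in the 57 nt after its stop codon as in its CDS. A processed copy, SLC31A1P1, shares 25.3% of its 28-nt CDS stretches. Without SLC31A1 the members' pooled RRTS was 24.8% in G418 A and 1.32% as the untreated mean, against 1.66% with it.

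SLC7A1 had 8, 8 and 35 readthrough reads, and an RRTS of 0.153 (0.066 to 0.302), 0.112 (0.048 to 0.220) and 0.524 (0.365 to 0.729). Both carriers have the stop signal UGAC printed above, and in both the 2 untreated libraries gave like values with the G418 library higher. SLC3A2, also UGAC, had 3, 0 and 43 reads and an RRTS of 0.361 (0.261 to 0.486) in G418 A. No in-frame stop codon follows its NTC, so its region runs to the 3′ end of the mRNA. SLC39A10, also UGAC, had 0, 3 and 18 reads and an RRTS of 0.518 (0.307 to 0.818).

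For the creatine carrier SLC6A8, the fifth UGAC context shown, readthrough reads numbered 0, 0 and 11, an RRTS of 0.467 (0.233 to 0.835) in G418 A. With its few CDS reads, the 0 in untreated cells allows an RRTS of up to 0.425 in Untreated A and 0.323 in Untreated B (3 reads), which overlaps the interval of the value in G418 A.

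Another UGAC carrier, SLC2A8, had 1, 0 and 15 readthrough reads and an RRTS of 0.651 (0.364 to 1.07) in G418 A. Outside UGAC, the lactate carrier SLC16A1 (UGAA) had 0, 0 and 26 readthrough reads over a region of 21 nt and an RRTS of 0.831 (0.543 to 1.22) in G418 A. The most reads after SLC31A1 and SLC3A2 fell on the phosphate carrier SLC20A1 (UGAA), the glutamine carrier SLC38A1 (UGAA) and SLC38A2 (UAAU), each with 0, 0 and 40. Their RRTS in G418 A was 0.331, 0.149 and 0.353, over regions of 147, 327 and 51 nt. SLC1A4 (UGAU) had 0, 0 and 28 reads and an RRTS of 0.302. SLC2A1 (UGAG) had 0, 0 and 27 and an RRTS of 0.316. In these 6 carriers no readthrough read was counted in untreated cells.

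Lower values were seen in SLC1A5 (UAAA; 0, 0 and 12 reads; RRTS of 0.140 in G418 A) and SLC39A7 (UGAG; 0, 0 and 3 reads; RRTS of 0.024, interval 0.005 to 0.071), a zinc carrier of the endoplasmic reticulum. SLC7A5 (UAGC) had 0, 0 and 5 reads and an RRTS of 0.359 (0.116 to 0.837). SLC30A1, with a region of only 18 nt, had 0, 1 and 3 reads and an RRTS of 0.621 with the wide interval of 0.128 to 1.82. The non-carrier SLC4A1AP had 0, 1 and 7 reads (RRTS 0.564).

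Of the members that averaged 500 or more CDS reads, 5 had no readthrough read in G418 A: SLC6A15, SLC35F5, SLC35B2, SLC30A5 and SLC39A14. The neutral amino acid carrier SLC6A15 (UAGC) had 0 reads in each library, which allows an RRTS of up to 0.134 in G418 A. For the other 4 the regions span 18 to 30 nt, and 0 reads allow up to 0.292 in SLC35F5, 0.327 in SLC35B2, 0.438 in SLC30A5 and 0.559 in SLC39A14, so a readthrough close to the members' pooled value was detectable only in SLC6A15. SLC30A5 had 0 reads in Untreated A and 5 in Untreated B, an RRTS of 0.894, and SLC35F5 had 2 and 0. Reads in an untreated library with none in G418 A also occurred in SLC2A3, with 0, 1 and 0.

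**Figure D4:**
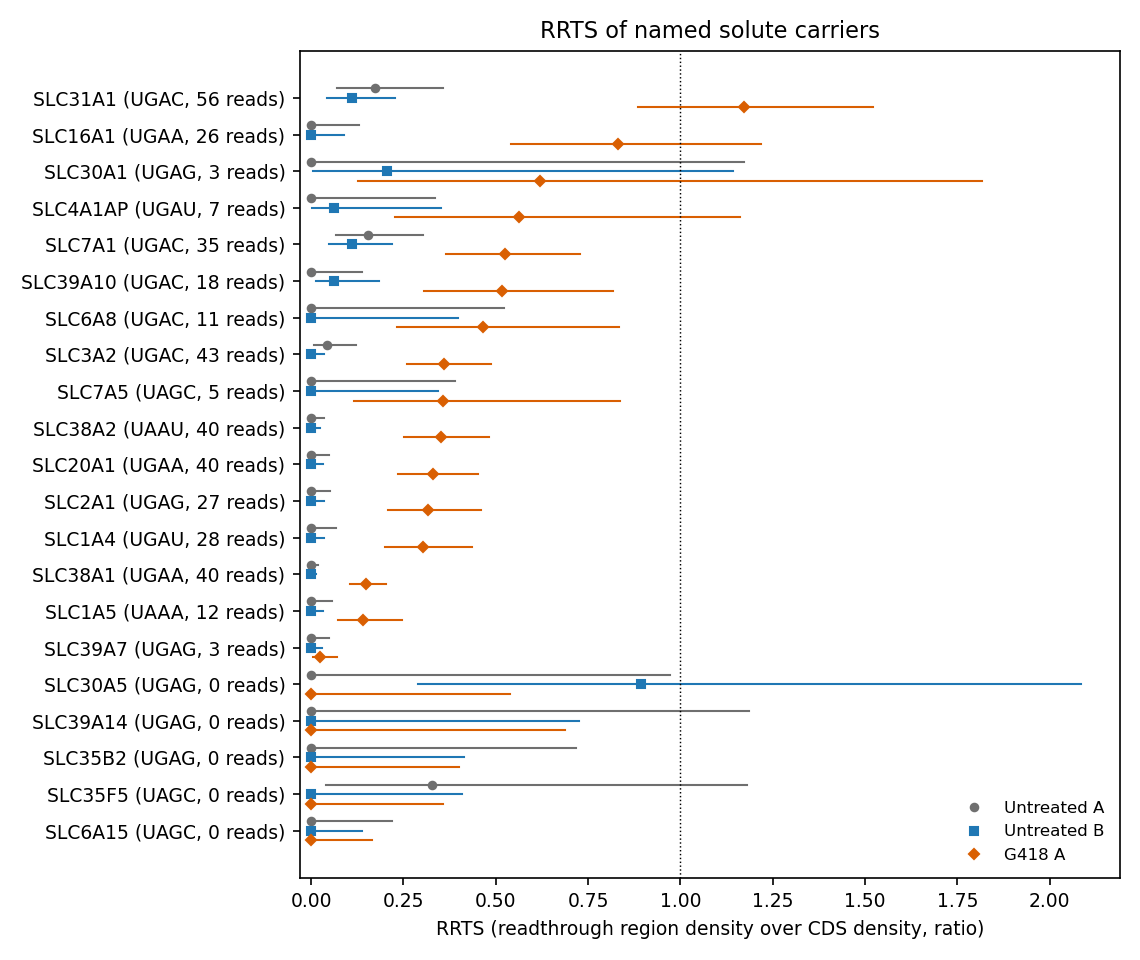
RRTS of 21 named members in the 3 libraries with exact Poisson 95% intervals, with the stop signal and the number of readthrough reads in G418 A after each name, and a dotted line where readthrough and CDS density are equal. SLC31A1 is highest in G418 A at 1.17, and the last 5 members have 0 reads in G418 A with intervals that widen as the region shortens.

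Outside the region scored for readthrough the carriers' 3′UTRs held few ribosomes. This takes in the stretch beyond the 3′TC and the 6 nt after the NTC, which the RRTS leaves out. Over the 69 members these stretches held 53, 105 and 364 reads, a density of 0.132%, 0.168% and 0.667% of that in the CDS. Over all 5684 transcripts the values were 0.178%, 0.158% and 0.858%. Both were far lower than the density between NTC and 3′TC.

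Relative to the CDS of the same mRNAs, ribosomes in the 5′UTR were denser for carriers than over all transcripts in each library. The 66 of 69 members with a 5′UTR of at least 30 nt held 1433, 2413 and 1639 reads there, a pooled density of 21.9%, 23.7% and 18.5% of that in the CDS. All transcripts gave 11.4%, 12.2% and 10.3%. The member medians were 17.1%, 20.6% and 12.3%, beside 7.43%, 9.30% and 6.90%. The ratio in G418 A was below both untreated libraries in 25 of 66 members, or 37.9%, beside 30.8% of 4922 transcripts, and above both in 6, or 9.09%, beside 22.3%. The ratio shares its CDS reads with the CDS comparison, so the 2 are not independent.

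For SLC6A8 the ratio in G418 A was lower by more than the counting error of its 5′UTR reads. Its 5′UTR held 67, 126 and 52 reads, or 11.4, 13.3 and 7.21 RPM (RPKM without the division by length), while its CDS reads rose. The 5′UTR density was 2.12 (95% interval 1.65 to 2.70), 3.04 (2.53 to 3.62) and 0.494 times (0.369 to 0.648) the CDS density. Untreated cells thus had more ribosomes per nucleotide before the start codon of this mRNA than after it, and G418 A had fewer. The interval of G418 A was apart from those of both untreated libraries, but these intervals leave out the counting error of the CDS reads. The lower ratio is in part the called rise in CDS reads again. Only the 5′UTR reads in RPM, lowest in G418 A, are free of it. For SLC35E2A and SLC35E2B the 5′UTR reads numbered 14, 18 and 25, and 15, 23 and 24, highest in G418 A, unlike those of SLC6A8. The ratio in G418 A (0.393 and 0.485) was below that in the untreated libraries (2.37 and 1.70, and 1.59 and 1.39). For this pair the lower ratio follows from the rise in CDS reads by which both were picked, so it is no separate result.

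The members with the most 5′UTR reads were SLC38A2, SLC1A5, SLC20A1, SLC38A1 and SLC39A7. For SLC38A2 the ratio was 0.213, 0.234 and 0.226, with no separation of the G418 library. For SLC1A5 it was 0.286, 0.235 and 0.181, and for SLC39A7 it was 0.394, 0.398 and 0.283, in both of which G418 A was the lowest. The SLC1A5 interval in G418 A (0.153 to 0.212) still overlapped that in Untreated B (0.207 to 0.266). SLC20A1 (0.438, 0.448 and 0.391) and SLC38A1 (0.284, 0.367 and 0.324) overlapped the untreated libraries within their counting intervals. In SLC30A1 the untreated libraries differed from each other, with 23, 100 and 23 5′UTR reads and ratios of 0.162, 0.453 and 0.105.

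**Figure D5:**
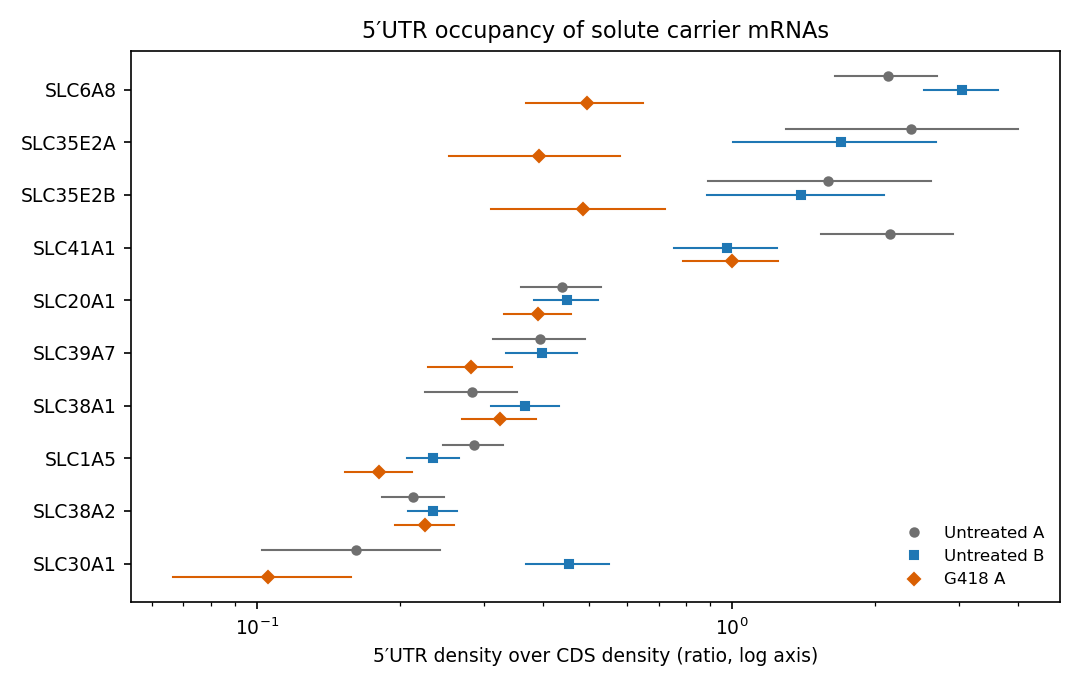
Ratio of 5′UTR density to CDS density on a log axis for 10 named members in the 3 libraries, with exact Poisson 95% intervals for the 5′UTR reads. SLC6A8 lies at 2.12 and 3.04 in the untreated libraries and at 0.494 in G418 A, whereas SLC38A2 lies between 0.213 and 0.234 in all 3.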

How the data were processed

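Tables for 3 HEK293T ribosome profiling libraries were used. The authors collapsed duplicate reads by molecular identifier, removed noncoding RNA, aligned the remainder with STAR to hg38 and assigned RPFs of 28 to 35 nt to 1 transcript per gene (GENCODE v30), keeping the primary alignment of reads that matched several places. The authors deposited RPM values per region, RPKM densities (RPM per kilobase, CDS ends left out), RRTS as a ratio of densities, and whole-number counts of CDS reads. All nonzero RPM values (100%, tolerance 0.01 of a read) were whole multiples of 1 read, so reads were recovered by division. The deposited count was 1 lower than the recovered reads in 9080 of 9099 transcripts of Untreated A, and served as an alternative.

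CDS reads were compared with edgeR 4.0.16 (R 4.3.3; TMM, quasi-likelihood test, Benjamini-Hochberg over 8480 transcripts with a mean of at least 20 reads). The spread came wholly from a fit across transcripts, so no edgeR SE or p reflects a gene's own difference between the untreated libraries. DESeq2 1.42.0, the study's tool, and other scalings, filters and read minimums were alternatives. In simulated counts for this comparison over 8480 transcripts, 66% of 2-fold and 100% of 4-fold increases were called, and 40% and 90% of decreases of these sizes. The simulation gave all transcripts the same spread, so these shares may be too high for real transcripts, whose spreads can differ. RRTS and 5′UTR values used recovered reads and exact Poisson intervals (scipy) with no test. RRTS computed from recovered reads matched the deposited ratio within 2% in all 8812 transcripts. Members, substrate groups and partner lists were chosen with earlier results of these data known. Genes were named by fixed lists (creatine, amino acid, glucose and metal carriers), adjusted p, the 8 largest rises and 5 largest falls among members with at least 128 reads, the 8 with the most readthrough reads in G418 A, the 5 highest RRTS and any RRTS of 0 in G418 A among those with at least 500 reads, those with at least 5 readthrough reads in both untreated libraries, and the 5 with the most 5′UTR reads.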

Additional observations from a re-analysis of the deposited data

How the results depend on the processing

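The members' median log2 change of CDS reads (0.24) was 0.33 with library totals, which shift the median of all transcripts by 0.10 from 0.00, 0.23 with DESeq2 size factors, 0.23 with DESeq2, 0.27 when fitted on transcripts with at least 128 reads, and 0.23 without either untreated library. The count of 2 members with more reads became 3 with library totals, 1 at the 128-read minimum, where SLC35E2A is not tested, and 0 with DESeq2 without independent filtering, an alternative chosen after seeing the data. With independent filtering DESeq2 gave no adjusted p to 68 of 124 members, SLC6A8 and SLC35E2A among them, so that count is not compared. Over all transcripts, 103 higher and 36 lower became 189 and 31 with library totals, and 8 and 13 with DESeq2. Leaving out 1 untreated library gives no test. The log2 change of SLC6A8 was then 1.30 to 1.67, and that of SLC35E2A 2.85 to 2.88. With library totals the changes of SLC1A5, SLC2A1 and SLC39A10 turned to 0.061, 0.0091 and 0.016, and SLC18B1 passed. Without Untreated B the changes of SLC7A1, SLC38A1 and SLC6A15, which were 0.07, 0.12 and 0.03, turned to -0.071, -0.0048 and -0.019. DESeq2 without independent filtering lost the calls of SLC6A8 and SLC35E2A (adjusted p of 0.157 and 0.531).

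The pooled RRTS in G418 A and its untreated mean, 26.8% and 1.66%, were 23.5% and 1.18% in regions of at least 60 nt, 24.8% and 1.32% without SLC31A1, 26.1% and 1.52% over members with at least 20 reads, and 28.6% and 1.78% above 500 reads. Without 1 untreated library they ranged from 27.1% to 27.1% and from 1.49% to 1.84%. The 5′UTR occupancy, 18.5% in G418 A and 22.8% untreated, was 21.1% and 25.3% over members with at least 20 reads, 18.1% and 22.9% without SLC38A2, and 18.5% to 19.3% and 21.9% to 24.2% without 1 untreated library. The cause of these shifts was not tested. No paired analysis was possible because the groups share only the replicate letter A. Depth limits single members most, above all those with few CDS reads or short readthrough regions.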
